A study of Mus musculus with 6 samples.

Results

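The p53 pathway was read here through 9 genes in 6 mouse neural stem cell lines: Mdm2 and Mdm4, the inhibitors that hold p53 in check, and the targets Plk2, Gtse1, Trp53inp1, Perp, Phlda3, Zmat3 and Aen. The list named 10 genes, and every probe set annotated to exactly 1 of these symbols was taken, which gave 19 probe sets of 9 genes, out of 45037 probe sets that are not controls and 18193 genes with a probe set of their own. No probe set carried the symbol Trp53, the gene of p53 itself, in the annotation table used here, so its transcript is not analysed here. The genes were put on the list with earlier results of the same comparison known, so their differences between the groups are given as a description and support nothing further.

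The study compared 3 neural stem cell lines labelled as lacking FoxO with 3 labelled as wild type, 1 array per line, in lines that the labels call independent. Neural stem cells are dividing brain cells that can form neurons, astrocytes and oligodendrocytes, and FoxO proteins are transcription factors that growth factor signalling keeps out of the nucleus. The labels name neither the deleted FoxO genes nor the strain, age, driver of deletion or culture treatment, and they give no treatment shared by both groups. The stem cell markers Sox2 (signals of 1899 to 2625) and Nes (724 to 1217) stood above the bacterial control probe sets on every array, as did all 12 stem cell markers read.

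The transcription factor p53 is switched on by DNA damage, oncogene activity and other stress. Mdm2 marks it for destruction and is itself a p53 target, which closes a feedback loop, and the related Mdm4 mainly masks the part of p53 that activates genes. Active p53 can arrest the cell cycle, chiefly through the kinase inhibitor Cdkn1a, help repair damage or cause cell death, and in the brain it restrains the self-renewal of neural stem cells.

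Some facts of the whole series bear on these genes. FoxO transcripts mostly went against the labels: Foxo1 read 77.9, 77.8 and 100.3 on the arrays labelled FoxO-null and 20.3, 20.4 and 31.7 on those labelled wild-type. Foxo4 (57.2 to 189.9 against 4.14 to 17.1) and Foxo3 (578 to 856 against 267 to 611) were also higher in mean. That Foxo4 probe set was above the bacterial controls on 3 arrays, and a second one, above them on 5, went the other way with means of 24.7 against 31.0 (log2 difference -0.31 ± 0.41). With the mean of both, the log2 difference of Foxo4 was 1.46 in place of 3.24. Where the probe sets lie relative to any deleted part is not known here. The groups are therefore called by their labels throughout. The highest bacterial control probe set was at 19.2 to 27.6 on arrays labelled FoxO-null and 14.4 to 19.1 on arrays labelled wild-type, so weak signals have a different floor in each group. The 5' probe set of 18S ribosomal RNA read 211 on wild-type 1 and 23.5 to 38.9 on the other arrays. All 23 G2/M division genes read had a negative log2 difference (labelled FoxO-null minus labelled wild-type), with a summed signal of 12949 to 14434 against 17054 to 17465, and all 21 G1/S genes did too (12481 to 14054 against 16189 to 17903). The proliferation marker Mki67 read 1132, 1125 and 1339 against 1549.6, 1362 and 1460.4. Astrocyte markers summed to 7189.6 to 8420.1 against 4848 to 6271 (9 markers, all above the controls), and oligodendrocyte markers to 17370.4 to 18026 against 13950.2 to 15567 (9 of 10 above). Of the 9 oligodendrocyte markers tested, 7 had a positive log2 difference and 2 a negative one. Mbp (4141, 4846 and 4302 against 3612, 2463 and 2853) and Cnp (2876, 2271 and 2357 against 1295, 1298 and 1498) were higher. Olig1 (6226, 6401 and 7482 against 6694, 6887 and 7716) and Olig2 (1730, 1856 and 1482 against 1936, 1848 and 1940) overlapped and were lower in mean. Stem cell markers summed to 32199 to 35502 against 25305 to 33509 (12 markers, all above). Of these 12, 8 had a positive log2 difference and 4 a negative one. All arrays labelled FoxO-null were highest for 5 of them (41.7%), against 8.08% of all genes tested. Hes5 was higher (406, 349 and 295 against 114, 134 and 133), while Nes was lower in mean (724, 757 and 997 against 826, 1163 and 1217). Of 9 neuron markers 6 stood above the bacterial controls on all arrays. The sum of the 9 was 1431 to 1461 against 1384 to 1710.2, most of it Map2 (1147, 1174 and 1072 against 1346, 1028 and 1054). All arrays labelled FoxO-null were lowest for 2 of the 9 (22.2%), against 7.96% of all genes tested. Endothelial and microglial markers were weak, since 0 of 6 and 1 of 7 stood above the controls on all arrays, with Pecam1 at 2.33 to 7.34 and Aif1 at 0.99 to 9.15. The endothelial sum was 69.7 to 121 against 55.3 to 86.1, and the microglial sum 116 to 127 against 92.5 to 134. That of 8 fibroblast and pericyte markers (3 above) was 580.4 to 988 against 214 to 497. This last difference came mostly from Thy1, at 803, 546 and 315 against 40.1, 275 and 30.5. Of the 5 fibroblast and pericyte markers tested, 3 had a negative log2 difference and 2 a positive one. The part of these shifts in the differences below was not tested, and in bulk RNA fewer cells of a type and less RNA per cell cannot be told apart.

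Promoter sequence was looked at because most of the listed genes are classed as p53 targets and the study concerns FoxO. RefSeq windows of 300 bases (GRCm38.p6), 250 before and 50 after each annotated start, were found for 7 of the 10 listed genes, in 10 windows. The p53 decamer half-site, which reads the same on both strands, was present in windows of 4 of the 7 genes (Aen, Gtse1, Mdm2 and Trp53), against 9.55% of all 27025 genes, and in 5 of the 10 windows, against 8.36% of all 32851. Trp53, the gene of p53 itself, is counted here although its transcript is not analysed, so the count is not restricted to p53 targets. The FoxO site GTAAACA, searched on both strands, was present in 1 of the 7 genes, Mdm2, against 4.05% of all genes, and in 1 of the 10 windows, against 3.65% of all. The 250 bases before the start of Mdm2 are shown because they hold both, in capitals, first the half-site at 186 bases before the start and then the FoxO site at 153 (chr10:117710759-117711008, minus strand). Those of Plk2 are shown because it differed most between the groups among the well measured genes (chr13:110394794-110395043, plus strand), and they hold neither.
Mdm2: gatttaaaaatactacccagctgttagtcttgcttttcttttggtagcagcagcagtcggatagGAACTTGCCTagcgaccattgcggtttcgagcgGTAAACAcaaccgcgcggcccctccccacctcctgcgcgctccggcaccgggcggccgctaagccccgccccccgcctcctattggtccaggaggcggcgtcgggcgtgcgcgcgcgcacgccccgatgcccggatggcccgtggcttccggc
Plk2: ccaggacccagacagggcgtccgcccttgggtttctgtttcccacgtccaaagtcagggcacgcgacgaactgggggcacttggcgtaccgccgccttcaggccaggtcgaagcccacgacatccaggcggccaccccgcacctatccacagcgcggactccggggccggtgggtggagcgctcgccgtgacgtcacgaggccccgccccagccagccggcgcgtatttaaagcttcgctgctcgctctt
A match is a description of the letters and not a binding site. The p53-responsive promoter of Mdm2 lies in its first intron, outside this window.

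The half-sites of Aen and Gtse1 are shown with 10 bases on each side, in capitals, because these genes had lower mean signals in the lines labelled FoxO-null (chr7:78895927-78895956 and chr15:85859945-85859974, both plus strand). The Aen match begins at base 11 of the transcript from 1 of its annotated starts and 121 bases before the other, and the Gtse1 match begins at base 10 of the transcript from 1 of its starts.
Aen: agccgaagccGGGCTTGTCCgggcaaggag
Gtse1: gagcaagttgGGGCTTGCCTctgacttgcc

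Among all 9 genes, 8 had a lower mean log2 signal in the lines labelled FoxO-null, and the median log2 difference was -0.36, against 0.0098 over the 12665 genes tested, of which 48.3% were negative. All 9 passed the filter on low signals. Of the 9, 0 passed an adjusted p under 0.05 in the limma fit over all genes, where 0.0395% of genes passed, and the lowest adjusted p of the 9 was 0.136, for Plk2. Before adjustment, 4 of the 9 had a limma p under 0.05, all lower, in a background of 4.94%. All 3 arrays labelled FoxO-null lay below all 3 labelled wild-type in 4 genes, Plk2, Perp, Zmat3 and Aen, against 7.96% of all genes, and 0 had all 3 above, against 8.08%. Nothing is read from these counts, since the same contrast was known when the list was made.

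**Figure D1:**
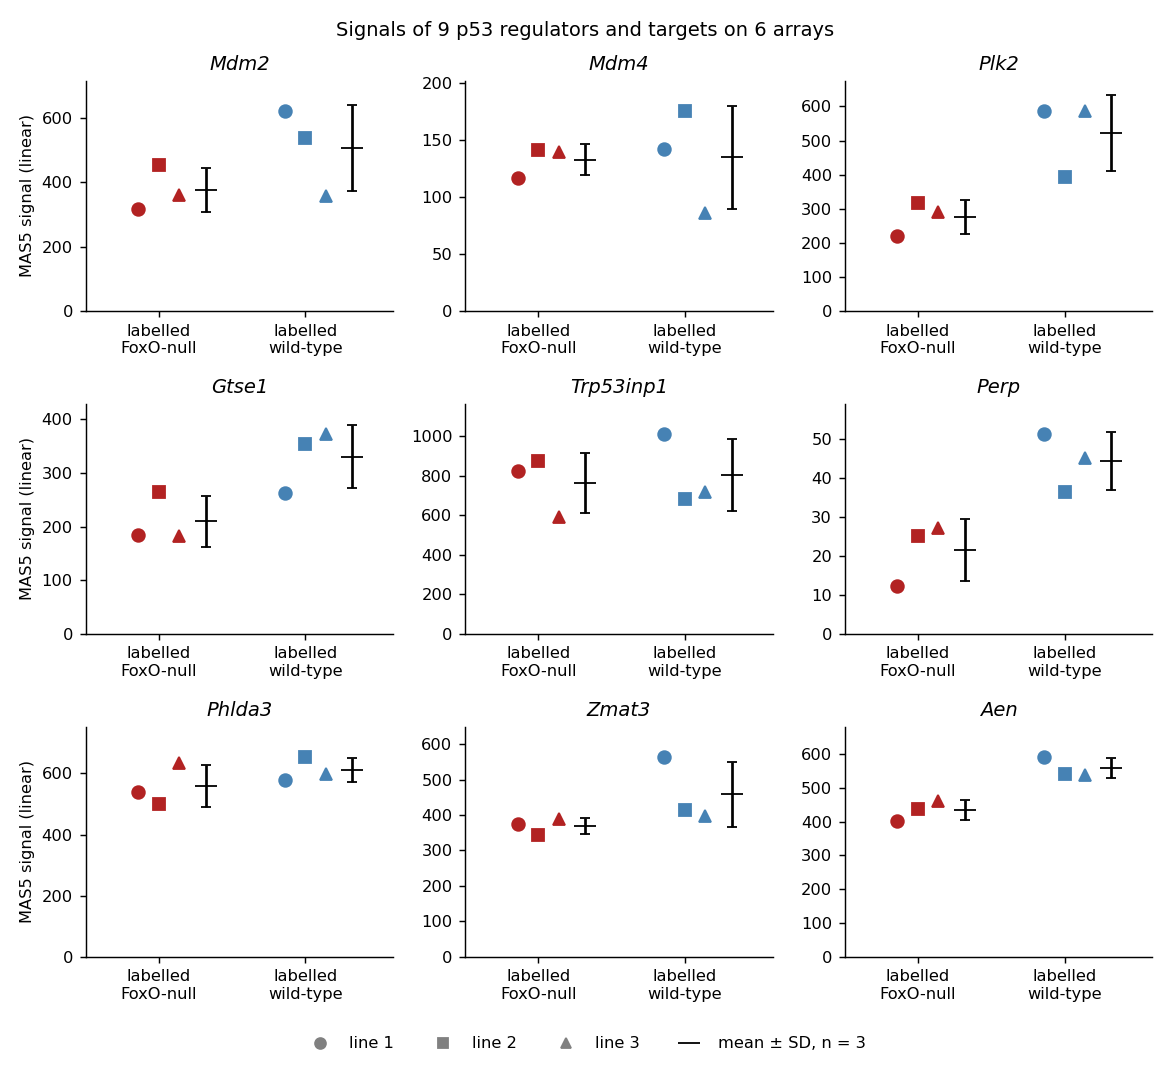
MAS5 signal on a linear axis from 0 for 9 genes, with 1 point per line, shaped by line number, and black bars for the mean ± SD of 3 lines. The groups do not overlap for Plk2, Perp, Zmat3 and Aen, and Mdm4, Trp53inp1 and Phlda3 overlap widely.

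The inhibitors of p53 differed little or unevenly between the groups. Mdm2, the ubiquitin ligase of p53, read 317, 453 and 361 on FoxO-null 1 to 3 and 622, 539 and 358 on wild-type 1 to 3. Wild-type 1 and 2 were high, while wild-type 3 lay among the arrays labelled FoxO-null, so the groups overlapped. The means were 377 ± 69.3 and 506 ± 135 (SD, n = 3 lines each), a log2 difference of -0.40 ± 0.20 (SE), which was -0.23 without wild-type 1 and -0.63 without wild-type 3. The second Mdm2 probe set gave 272, 218 and 223 against 270.2, 272 and 269, and its log2 difference was -0.19 ± 0.13. It did not show the high values of wild-type 1 and 2, so the probe sets of Mdm2 disagree on the pattern between lines although both log2 differences were negative. The remaining Mdm2 probe set was above the bacterial controls on 2 of 6 arrays only.

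Mdm4, the relative of Mdm2 that binds p53 without degrading it efficiently by itself, read 117, 141 and 139 against 142, 175 and 86.1. Wild-type 3 was the lowest of the 6 arrays and wild-type 2 the highest, so the whole range of the gene lay within the wild-type label. The log2 difference was 0.03 ± 0.23, and its sign turned with median centring of the arrays (-0.04) and without FoxO-null 2, FoxO-null 3 or wild-type 3 (-0.02, -0.0084 and -0.25). The "_s_at" suffix of its probe set marks probes that can match transcripts of more than 1 gene. The next Mdm4 probe set was at -0.18 ± 0.33, and the remaining 2 were above the bacterial controls on 2 of 6 arrays each.

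Plk2 and Gtse1, which act in the cell cycle, had lower means in the lines labelled FoxO-null, though neither passed the test over all genes. Plk2, a polo-like kinase that p53 induces and that acts in the G1 phase and at centrioles, read 221, 315 and 289.8 against 586, 392 and 587. Every array labelled FoxO-null was below every array labelled wild-type, with wild-type 2 nearest to them. The means were 275 ± 48.6 and 522 ± 112, a log2 difference of -0.90 ± 0.18, or 1.86-fold lower on the scale of log2(signal + 5.94). It was -1.09 to -0.75 when 1 array was left out. The other Plk2 probe set was above the bacterial controls on 1 array only.

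Gtse1, a microtubule-binding protein of G2 and S phase that carries p53 out of the nucleus and lowers its level, read 184, 265 and 182 against 263, 354 and 373. FoxO-null 2 and wild-type 1 were nearly level, and the other arrays were parted by label. The log2 difference was -0.64 ± 0.18. Gtse1 is itself a gene of dividing cells, and its difference stood beside that of the G2/M genes, whose median was -0.32. The part of cell division in it was not tested.

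The targets tied to cell death varied in both size and agreement. Trp53inp1, a nuclear stress protein that promotes p53 activity and autophagy, read 822, 875 and 590.4 against 1010.1, 682 and 716. Wild-type 1 was highest and FoxO-null 3 lowest, while FoxO-null 1 and 2 both lay above wild-type 2 and 3, against the direction of the means. The log2 difference was -0.07 ± 0.18, and it was 0.10 without FoxO-null 3 and also 0.10 without wild-type 1. On a second Trp53inp1 probe set the lines gave 146, 180.2 and 121 against 234, 159 and 245, and the log2 difference there was -0.49 ± 0.19. Wild-type 1 and 3 were high and wild-type 2 lay among the arrays labelled FoxO-null, so the size of the difference depended on the probe set, and with the mean of both it was -0.28 ± 0.18.

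Perp, a tetraspan membrane protein of desmosomes and of p53-dependent death, read 12.4, 25.2 and 27.1 against 51.3, 36.5 and 45.1. The groups did not overlap, but all signals were weak. Only 1 of 3 arrays labelled FoxO-null was above its bacterial controls, against all 3 labelled wild-type. The log2 difference was -0.91 ± 0.34, and -0.52 ± 0.19 with an offset of 32 in place of 5.94, where low signals count for less.

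Phlda3, a repressor of the kinase Akt, read 540.3, 502 and 634 against 579.6, 654 and 597. FoxO-null 3 was above wild-type 1 and 3, so the groups overlapped, and the log2 difference was -0.13 ± 0.12. Of the 9 genes, its signals in the lines labelled wild-type spread the least but for Aen, at a highest over lowest ratio of 1.13 against 1.10 for Aen.

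Zmat3, a zinc finger RNA-binding protein, read 375, 344 and 389.8 against 564, 415 and 396. The groups did not overlap, yet FoxO-null 3 and wild-type 3 were close, and wild-type 1 alone was far above the rest. The log2 difference was -0.29 ± 0.15, and -0.13 without wild-type 1.

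Aen, a nuclease induced by p53 that takes part in DNA fragmentation, read 402, 439 and 460.1 against 592, 542 and 539.8. The lines of each label lay close together and the groups did not overlap. The means were 434 ± 29.1 and 558 ± 29.7, a log2 difference of -0.36 ± 0.11, which was -0.23 ± 0.13 with the mean of all 4 Aen probe sets. A second Aen probe set gave 218, 232 and 205 against 316, 289.8 and 256, with no overlap and a log2 difference of -0.38 ± 0.13. The 2 weaker Aen probe sets overlapped between the groups, at -0.23 ± 0.32 and 0.04 ± 0.34. Among the genes with more than 1 probe set above the bacterial controls on all arrays (Aen, Mdm2, Mdm4 and Trp53inp1), more than 1 parted the groups only for Aen. The other genes of the list had at most 1 such probe set and could not show this.

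**Figure D2:**
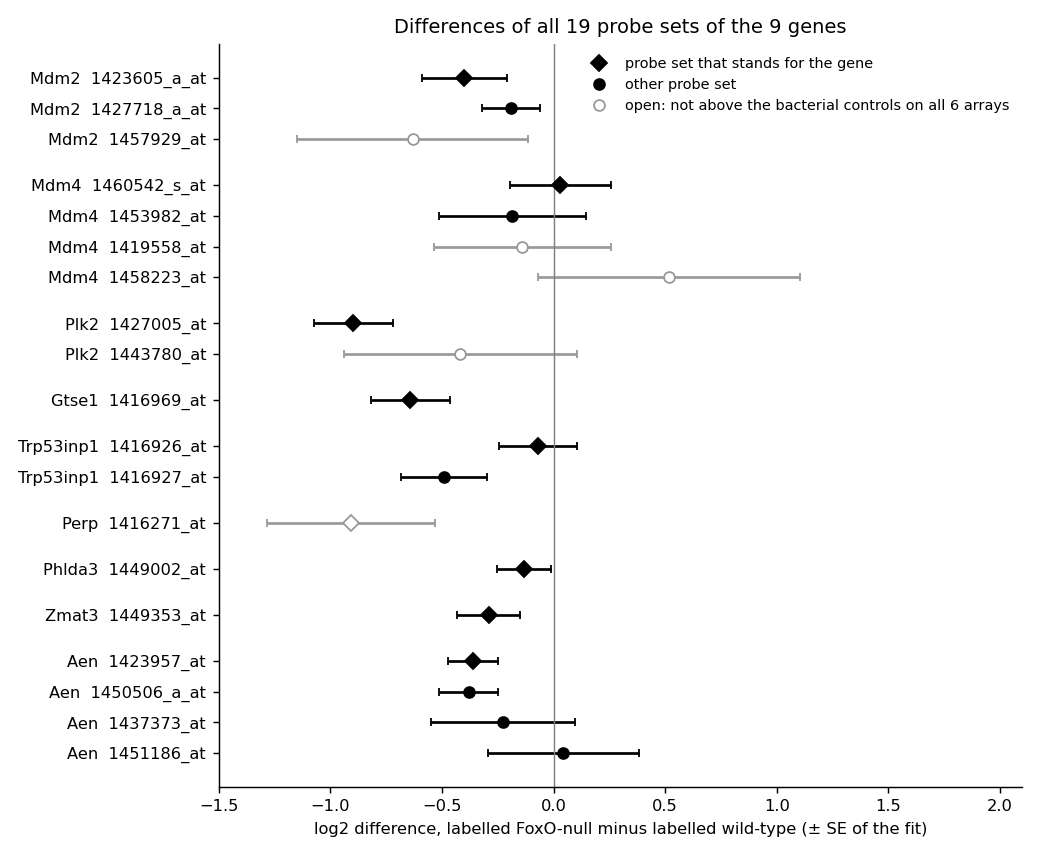
Log2 difference (labelled FoxO-null minus labelled wild-type) ± SE for all 19 probe sets, grouped by gene; diamonds stand for the gene, and open grey points mark probe sets not above the bacterial controls on all 6 arrays. Of the 19, 16 lie below 0, and the spread within Mdm4, Aen and Trp53inp1 is visible.

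Over probe sets, 16 of 19 had a negative log2 difference, against 46.5% of all 45037, and 5 had all arrays labelled FoxO-null lowest, against 5.67%. Of the 14 above the bacterial controls on all 6 arrays, 12 were negative and 4 had all arrays labelled FoxO-null lowest, where the shares of all such probe sets were 48.6% and 8.11%. None of the 19 had all arrays labelled FoxO-null highest. That share was 8.08% over the genes tested and was not counted over all probe sets, so nothing is read from it.

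By array, the 9 genes stood highest in the first line labelled wild-type. Their median log2 deviation from each gene's own 6-array mean was -0.28, -0.16 and -0.14 on FoxO-null 1 to 3 and 0.39, 0.17 and 0.04 on wild-type 1 to 3. Wild-type 1, which also had the high 18S reading, was the highest of 6 for 5 of the 9 genes, and FoxO-null 1 the lowest for 4. Wild-type 3 held both kinds of extreme: it was highest for Plk2 and Gtse1 and lowest for Mdm4. Without wild-type 1 the median log2 difference of the 9 genes was -0.23, and 7 of the 9 were negative.

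**Figure D3:**
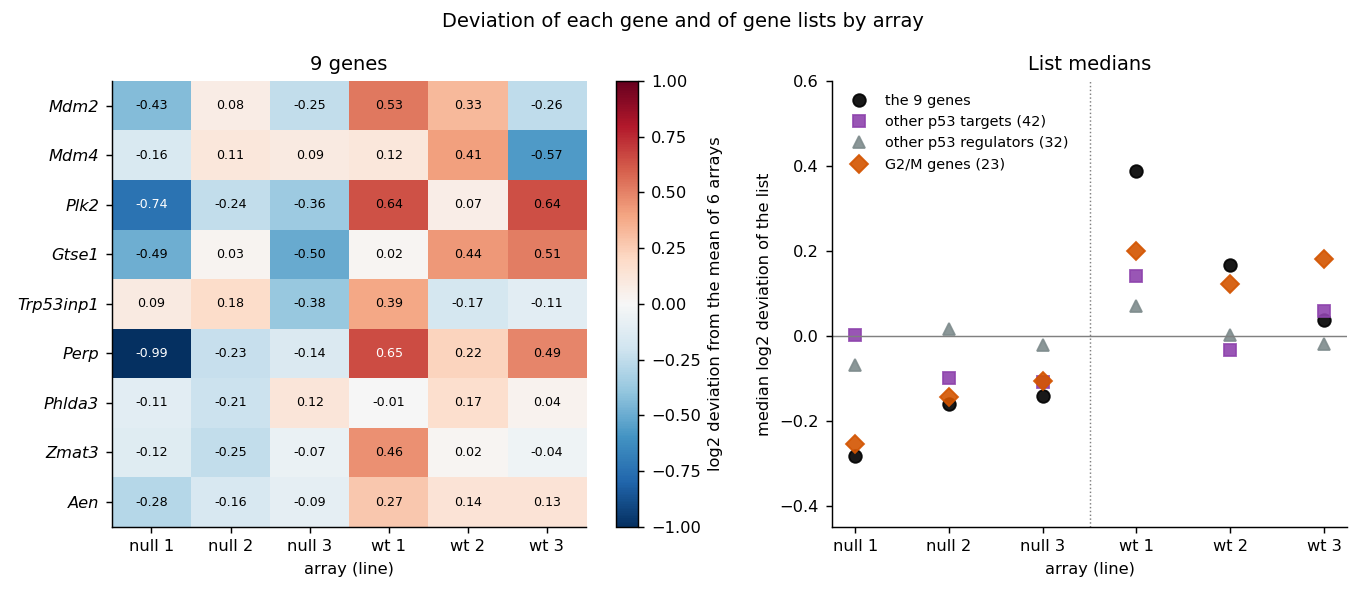
Left, log2 deviation of each of 9 genes from its mean over 6 arrays, one column per array; right, the median deviation of these genes and of 3 other lists on the same arrays. The lowest values are those of Perp and Plk2 on FoxO-null 1, and the medians of the other p53 regulators lie between -0.07 and 0.07.

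Some of these genes followed each other from line to line. As a description over 6 arrays that share the group labels, 33 of the 36 pairs of genes had a positive Pearson r, with a median of 0.44; after the group means were taken out, 24 pairs were positive and the median was 0.12. Plk2, Perp and Aen were the closest set, with r of 0.93 to 0.96 between them, and 0.63 to 0.89 with group means taken out. The values with Perp rest partly on signals below the bacterial controls, since Perp was above them on only 1 of the 3 arrays labelled FoxO-null. Trp53inp1 and Phlda3 ran opposite to each other (-0.67, and -0.87 within groups), and the 3 lines of each label stood in reverse order on them.

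The gene most like Plk2 over the 6 arrays, of 12016 compared, was Cdkn1a, the p53 target that encodes the kinase inhibitor p21 (r = 0.998). Cdkn1a read 1657, 1871 and 1809 against 2358, 2005 and 2304, so that wild-type 2 was nearest to the lines labelled FoxO-null, as for Plk2. Its log2 difference was -0.32 ± 0.11, and its limma adjusted p over all genes was 0.355. With the group means taken out, r between Plk2 and Cdkn1a was 0.99, and Spearman's rho over the 6 arrays was 0.94. Without wild-type 1 and wild-type 3, which leaves FoxO-null 1 to 3 and wild-type 2 only, r was 0.9996. Cdkn1a was picked as the gene of highest r on these same arrays, so these values describe that likeness and are no separate support for it. Perp and Aen also followed Cdkn1a (r = 0.95 and 0.93 over all arrays, 0.82 and 0.66 with group means taken out). Those of Perp again rest partly on signals below the bacterial controls. For Gtse1, r was 0.72 over all arrays but 0.037 with group means taken out, and for Mdm4 it was -0.20 and -0.33. Next to Plk2 came Yars2, a mitochondrial tyrosyl-tRNA synthetase (0.989), and Cradd, a death domain adaptor (0.987). An r above 0.9 with Plk2 over 6 arrays was not particular to these genes, since 197 of the 12016 genes had one.

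**Figure D4:**
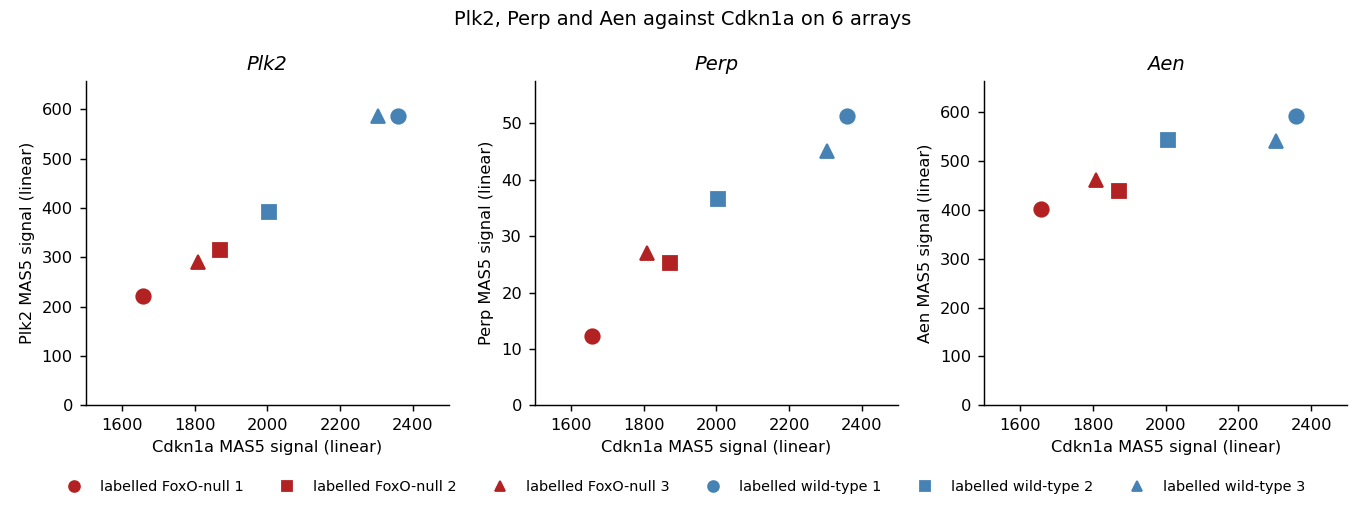
MAS5 signals of Plk2, Perp and Aen (vertical axes from 0) against Cdkn1a (horizontal axis, linear, not starting at 0) on 6 arrays, red for lines labelled FoxO-null and blue for wild-type. The 6 points of Plk2 lie nearly on a line, with r = 0.998 on the log2 scale. Perp was above the bacterial controls on only 1 of the 3 arrays labelled FoxO-null.

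Mdm2 had other neighbours. The genes most like it were the chromatin-associated Phf6 (0.994), the focal adhesion gene Parva (0.992) and Npm1 (0.991), a nucleolar protein that can bind Mdm2, and 158 genes exceeded 0.9. Npm1 read 2409, 2777 and 2450 against 3235, 3018 and 2549, with FoxO-null 1 lowest and wild-type 1 highest, as for Mdm2 on its strongest probe set. On the second Mdm2 probe set FoxO-null 1 read 272 and wild-type 1 270.2, so the likeness is that of 1 probe set. Mdm2 and Mdm4 agreed better within groups (0.82) than over all 6 arrays (0.63).

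The other p53 targets held both signs. Of 50 genes on a list of further targets, 42 were tested, and 0 passed in limma over all genes. At an unadjusted p under 0.05 there were 6 lower and 3 higher, which is 14.3% and 7.14% beside 4.94% and 5.26% of all genes. Their median log2 difference was -0.07, with 26 negative (61.9%, beside 48.3% of all genes) and 16 positive. Of the 42, 8 (19%) had all arrays labelled FoxO-null lowest and 3 (7.14%) highest, beside 7.96% and 8.08% of all genes. Ccng1, a cyclin G gene of the p53 feedback loop, read 1235, 1163 and 826 against 1771, 1136 and 1198, so wild-type 1 stood apart, and its log2 difference was -0.34 ± 0.19, but -0.14 without wild-type 1 and -0.16 without FoxO-null 3. Pmaip1, the BH3-only death gene Noxa, read 49.5, 27.2 and 21.6 against 54.2, 48.8 and 59.3, with FoxO-null 1 above wild-type 2. Its log2 difference was -0.69 ± 0.31, and -0.43 ± 0.19 with an offset of 32. The signals on FoxO-null 2 and 3 lay below the highest bacterial control of those arrays (27.6 and 26.9), so the size of this difference is uncertain. Bbc3, the death gene Puma, went the other way at 0.15 ± 0.16, with overlapping groups (143 to 195 against 137 to 172).

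The groups overlapped for the further named targets. The antiproliferative gene Btg2 was at -0.04 ± 0.15, the metabolic regulator Tigar at -0.18 ± 0.26 and the phosphatase gene Ppm1d, which switches p53 off, at -0.26 ± 0.19 (-0.40 to -0.11 without 1 array). The stress gene Sesn1 was at 0.12 ± 0.16, the ribonucleotide reductase subunit gene Rrm2b at 0.11 ± 0.16 and the DNA repair gene Xpc at -0.05 ± 0.20. The death receptor gene Fas was at -0.42 ± 0.51, and -1.04 to -0.095 without 1 array, with signals of 9.44 to 50.9 on arrays labelled wild-type alone. Among these genes the signs of Btg2, Sesn1 and Xpc turned when single arrays were left out, and that of Btg2 also with the mean of all its probe sets (0.17).

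Regulators and relatives of p53 outside the list also gave no call. Of 38 listed, 32 were tested, and 0 passed in limma over all genes. At an unadjusted p under 0.05 there were 2 lower and 1 higher, or 6.25% and 3.12%, beside 4.94% and 5.26% of all genes. Their median log2 difference was -0.09, with 22 negative (68.8%, beside 48.3% of all genes) and 10 positive. All arrays labelled FoxO-null were lowest for 2 (6.25%) and highest for 0, beside 7.96% and 8.08% of all genes. Chek1, a kinase that signals replication stress to p53 and is also a gene of dividing cells, read 90.4, 113 and 99.7 against 168, 111 and 115, with wild-type 1 apart and a log2 difference of -0.34 ± 0.19, but -0.16 without wild-type 1. Atm (-0.09 ± 0.18), the damage kinase, Trp53bp1 (-0.17 ± 0.16), a repair scaffold, and Usp7 (-0.06 ± 0.12), which removes ubiquitin from p53 and Mdm2, overlapped between the groups. With the mean of all probe sets Usp7 was at -0.34 ± 0.15 and Trp53bp1 at -0.32 ± 0.20. Cdkn2a, whose product Arf blocks Mdm2, was weak at 15.1 to 30.0 on all arrays, with a log2 difference of -0.25 ± 0.39. The p53 relative Trp73 was also weak (11.8 to 24.0, -0.16 ± 0.39), and Trp63 (0.27 to 29.3) did not pass the filter on low signals. The signs of Atm, Usp7 and Trp73 turned without 1 array.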

How the data were processed

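Total RNA of 6 lines was hybridised to 1 Affymetrix array each, with 6 ug of RNA as the labels' protocols state. The authors deposited MAS5 intensity signals (tool named in the submitters' processing notes), whose mean after trimming 2% at each end was 100 on each array; further steps are not given in the sources used here. Of 45101 probe sets, 34945 carried 1 gene symbol, 932 several and 9160 none, and 64 were controls; 0 symbols differed from those of RefSeq. Signals were put on a log2 scale after adding 5.94, their 20th percentile. A gene was represented by its probe set of highest mean, and genes under the 40th percentile (a signal of 16.2) were left out. The comparison was fitted with limma 3.58.1 in R 4.3.3 (lmFit, eBayes with trend, two-sided, Benjamini-Hochberg over 12665 genes, threshold 0.05). Probe sets were fitted without the filter. With 3 lines a group, the smallest two-sided p of an exact permutation test is 0.1, and p-values measure the spread between these lines. The bacterial control level of an array is the highest of 27 probe sets. The procedure was tested on simulated data. Alternatives were median centring, quantile normalization, offsets of 1 and 32, other filters, the mean of all probe sets, no intensity trend, a replicate block and leaving out each array. The members and lists were chosen with earlier results of these data known, and the motif windows came from RefSeq. Named genes followed a rule: the listed genes, Foxo1, Foxo3, Foxo4, Mki67, fixed p53 targets and regulators, and the 3 genes most like Mdm2 and Plk2; Bax and Ccnb1 had no probe set under that symbol and are not analysed here.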

Additional observations from a re-analysis of the deposited data

How the results depend on the processing

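Under the 15 alternatives 0 of the 9 genes passed in limma (0 of 8 with the stricter filter, which left out Perp), with a lowest adjusted p among them of 0.108 to 0.644, and their median log2 difference stayed between -0.43 and -0.23. The count of all genes past the threshold, 5, was 0 with median centring or no intensity trend (1048 and 1116 genes at an unadjusted p under 0.05), 1 with quantile normalization, an offset of 1, no filter or the mean of all probe sets, and 0 to 15 when 1 array was left out, with 0 without FoxO-null 1 (814 unadjusted), 1 without FoxO-null 3, 3 without wild-type 1 or 2 and 15 without wild-type 3. The median of the other p53 targets was -0.15 to -0.094 without 1 array, against -0.07 with all 6, and -0.14 with median centring and -0.041 with the mean of all probe sets. The median of the other regulators was -0.12 to -0.05 without 1 array, -0.16 with median centring and -0.0086 with the mean of all probe sets. Among the 9 genes the sign turned for Mdm4 (-0.04 with median centring, -0.25 to 0.24 without 1 array) and Trp53inp1 (-0.18 to 0.10 without 1 array). Among the other named genes it turned for Btg2 (0.17 with the mean of all probe sets, -0.14 to 0.12 without 1 array). It also turned without 1 array for Sesn1 (-0.0084 to 0.23), Trp73 (-0.32 to 0.062), Xpc (-0.16 to 0.024), Atm (-0.23 to 0.087) and Usp7 (-0.11 to 0.048). With the mean of all probe sets Aen was at -0.23, Plk2 at -0.66, Trp53inp1 at -0.28, Usp7 at -0.34, Trp53bp1 at -0.32 and Foxo4 at 1.46. The cause of these shifts was not tested. With a replicate block 6 genes passed in all and 0 of the 9. The numbers share no stated source: same-numbered lines correlated at 0.02, 0.09 and 0.12 after group means were taken out, and 5 of 6 arrays correlated best with their own number, a hint from the data and not from the design. Perp, Pmaip1 and the weaker probe sets of Mdm2, Mdm4 and Plk2 lay near the bacterial controls on some or all arrays, which limits what they can show.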
